A study of Mus musculus with 6 samples.

Results

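The nuclear genes of the mitochondrial respiratory chain were examined in cultured mouse bone marrow mesenchymal cells, adherent stromal cells known as a source of bone, cartilage and fat lineages. Members were taken by gene symbol: names of subunits of complexes I to V in the authors' deposited table, which gave 83 genes on 103 rows, of 22360 named genes on 35556 rows. Where rows shared a symbol, the brightest on average over the 6 arrays stood for the gene. Of the 83, 35 belong to complex I, 4 to complex II, 7 to complex III, 18 to complex IV and 15 to complex V. The other 4 symbols share the prefix but name no subunit: Cox7a2l, a factor that joins respiratory complexes into supercomplexes; Atp5s and Atp5sl, now named Dmac2l and Dmac2; and Cox4nb, now Emc8, a part of the endoplasmic reticulum membrane complex.

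The study set 3 arrays of a mixed population, MSC21, beside 3 arrays of Clone 4L.1.4, a tertiary clone that was derived from MSC21. Both were grown in the same stem cell medium, and RNA was taken from separate cultures at confluence. The labels name no treatment, transgene or deletion in either group, and no source used here gives the strain, sex or age of the mice. The clone arm is 1 clone, so p-values describe the spread between cultures of 1 clone and 1 population and not the spread between clones. The values are log2 expression from arrays labelled by the Affymetrix protocol and normalised with RMA, a method that gives all arrays a common distribution. Separately from that, a level is only comparable for the same row across arrays. A difference of 1 on this scale is 2-fold. The number of arrays, not a read depth, limits the precision.

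The respiratory chain sits in the inner mitochondrial membrane. Complex I takes electrons from NADH and complex II takes them from succinate; both pass them to ubiquinone, complex III passes them on to cytochrome c, and complex IV hands them to oxygen. Complexes I, III and IV pump protons, and complex V, the ATP synthase, uses the returning protons to make ATP. Most subunits are encoded in the nucleus, and a small set of core subunits is encoded in the mitochondrial DNA.

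Array medians lay between 5.19 and 5.25, and arrays correlated across rows at r = 0.9946 to 0.9958 within a group and at 0.9749 to 0.9793 between groups. Of 10 stromal markers 3 were higher and 5 lower in the clone, and only 1 of the 10 had a mean at or below the median level of all rows. Pdgfra (1.43), Pdgfrb (0.77) and Prrx1 (0.50) were the 3 that rose, and Vcam1 and Eng did not pass. Thy1 (-1.82) and Nt5e (-1.81), which are among the defining surface markers of these cells, lay below the array medians in the clone. Eng lay below them in both groups. Lepr (-1.83), Ly6a (-0.98) and Cd44 (-0.81) were the other falls. The median difference of the 10 stromal markers was -0.43. All 9 leukocyte, 5 of 6 endothelial, all 5 erythroid, all 5 brown adipocyte and 4 of 6 striated muscle markers lay at or below the median level of all rows. Ptprc, which marks leukocytes, had log2 levels of 4.37 ± 0.06 (population) and 4.39 ± 0.07 (clone; SD over 3 arrays each). In the leukocyte list 2 of 9 genes were lower in the clone. Cd53 read 5.24, 5.39 and 5.41 in the population and differed by -0.87 ± 0.06 (adjusted p = 0.000149 in limma). Cd14 read 5.44, 5.34 and 5.33 there and differed by -0.60 ± 0.07 (adjusted p = 0.000891 in limma). Both lay below the array medians in the clone only, which leaves the sizes inexact. The mean level of the leukocyte list ranged from 4.80 to 4.84 on population arrays and from 4.62 to 4.69 on clone arrays. The part of these differences in the results below was not tested.

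Respiratory chain genes moved in both directions and by small amounts. Of the 83 genes, 23 were higher and 18 lower in the clone by limma, with p-values adjusted over every row of the table by Benjamini and Hochberg's method and called under 0.05, and 42 did not pass. That is 49.4% of members, against 29.0% of all named genes and 51.2% of named genes above the median level, where 77 of the members lie. Among those 77 the share called was 51.9%, close to that of named genes above the median level. Those genes were not matched to the members in level. The member median was 9.01 to 9.13 on population arrays and 8.98 to 9.08 on clone arrays. Split by direction, 27.7% of members rose, against 14.5% of all named genes and 26.1% of those above the median level, and 21.7% fell, against 14.5% and 25.1%. The median log2 difference of member genes was 0.03, the same as the 0.03 over named genes above the median level, and -0.01 over all named genes. Centring the arrays on their medians lowers every difference by the same amount and took the median log2 difference of member genes to -0.0090. In bulk RNA, a change in the mix of cells and a change in RNA per cell cannot be told apart.

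No member that passed differed by as much as 2-fold, while 7.29% of named genes above the median level passed and differed by at least that much. A set of 8 members passed at 1.5-fold or more, which is 9.64% of members. Ndufa6, Ndufs6, Ndufb9, Ndufs4, Cyc1 and Atp5g2 were on the lower side and Ndufa3 and Ndufa10 on the higher. Of the 77 members above the median level the share was 10.4%, against 20.2% of named genes above that level. The population and clone arrays did not overlap for 57 members (68.7%), against 43.1% of all named genes; above the median level the shares were 70.1% of members and 66.5% of genes. The count of rises was 15 without population array 3, and 26 of the 41 calls held whichever array was left out. The 15 that did not were Ndufa5, Ndufa13, Ndufb4, Ndufb6, Ndufb11, Cox4i2, Cox6a2, Cox8a, Ndufa4, Atp5c1, Atp5d, Atp5e, Atp5j, Atp5k and Atp5s.

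**Figure D1:**
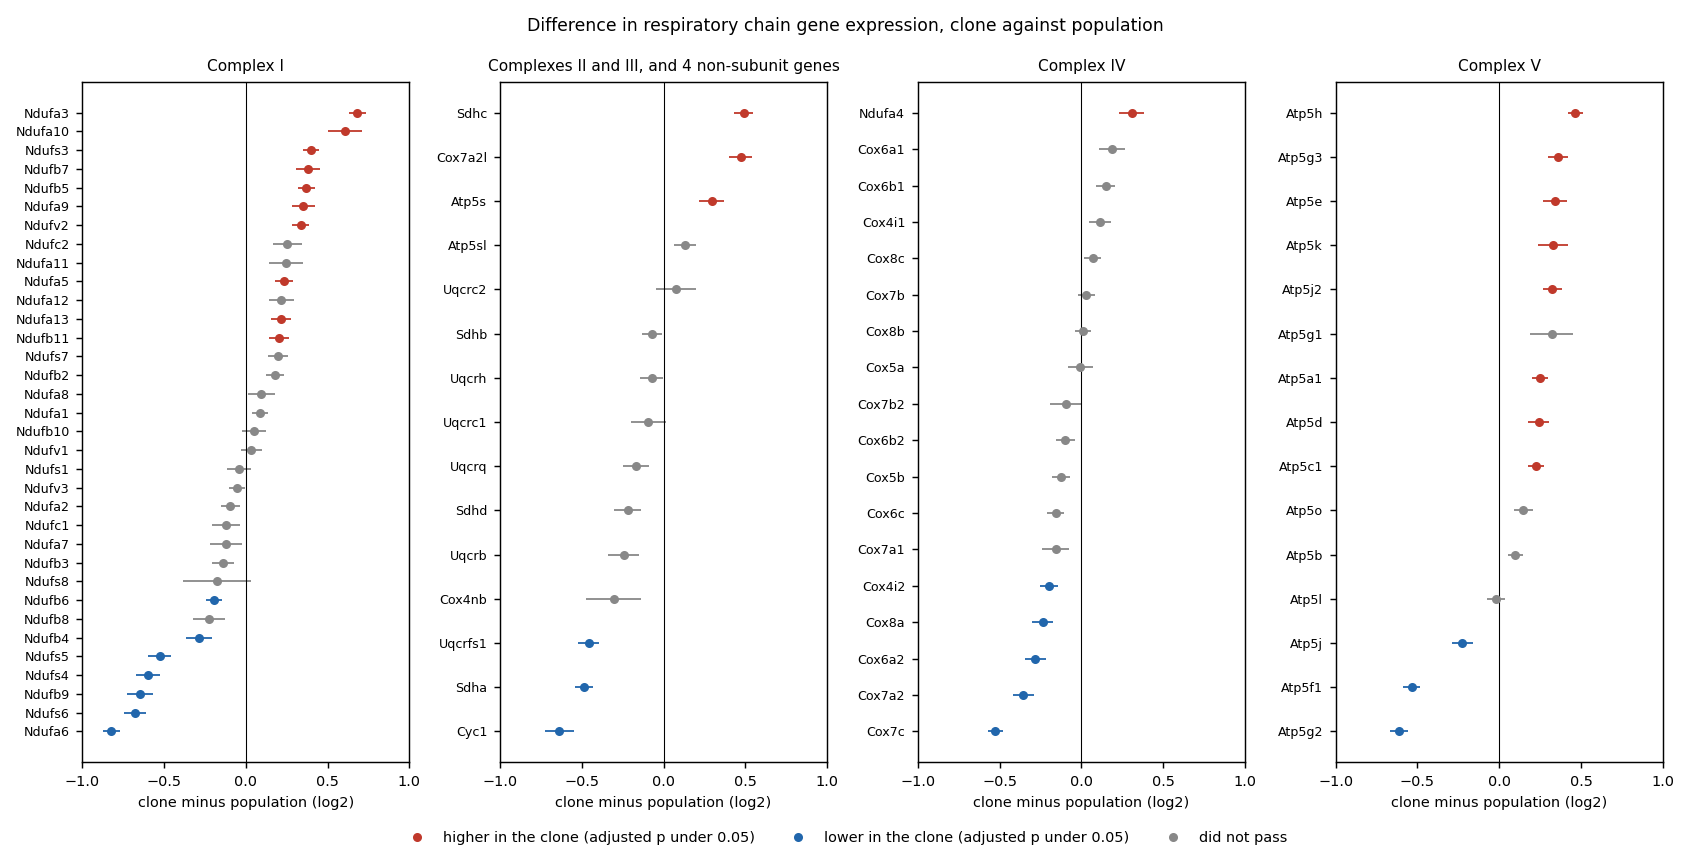
Difference between the clone and the population (log2, horizontal axis) for 82 of the 83 genes, in panels by complex; points are differences of group means and bars are standard errors from limma (3 arrays per group). Complex V is mostly to the right of 0 with 8 rises, complexes III and IV lie mostly to the left, and complex I spans from -0.82 for Ndufa6 to 0.68 for Ndufa3.

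Promoters are shown for the members with the largest fall or the largest rise in a complex, where the RefSeq table (GRCm38.p6) holds that promoter and it carries a searched motif. Each runs from 250 bases before the annotated start to 50 after it, 5′ to 3′ on the gene's strand. The capitals mark matches to the palindromic core of NRF1, a transcription factor of respiratory genes, which reads GCGC, any 2 bases and GCGC again; to CCGGAAG or its reverse CTTCCGG, the core of ETS factors such as GABP; to AAGATGG or its reverse CCATCTT, the core of YY1; or to AAGGTCA or its reverse TGACCTT, the core of the oestrogen-related receptors. The windows are chr15:82354242-82354541 (minus strand) for Ndufa6, chr7:3617123-3617422 (plus) for Ndufa3, chr13:74350191-74350490 (minus) for Sdha, chr13:86046746-86047045 (minus) for Cox7c, chr15:102670998-102671297 (minus) for Atp5g2 and chr11:115419870-115420169 (minus) for Atp5h.
Ndufa6: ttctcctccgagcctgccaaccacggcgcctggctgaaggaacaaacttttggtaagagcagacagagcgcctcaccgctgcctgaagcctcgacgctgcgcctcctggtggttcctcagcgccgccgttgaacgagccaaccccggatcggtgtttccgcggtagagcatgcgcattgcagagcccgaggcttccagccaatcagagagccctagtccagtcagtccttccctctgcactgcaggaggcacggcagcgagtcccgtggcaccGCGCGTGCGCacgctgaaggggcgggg
Ndufa3: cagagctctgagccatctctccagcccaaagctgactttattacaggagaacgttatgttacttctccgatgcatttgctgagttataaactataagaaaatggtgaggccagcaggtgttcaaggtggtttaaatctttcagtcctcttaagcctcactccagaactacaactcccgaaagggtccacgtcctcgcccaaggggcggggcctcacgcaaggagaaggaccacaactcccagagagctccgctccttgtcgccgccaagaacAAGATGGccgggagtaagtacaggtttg
Sdha: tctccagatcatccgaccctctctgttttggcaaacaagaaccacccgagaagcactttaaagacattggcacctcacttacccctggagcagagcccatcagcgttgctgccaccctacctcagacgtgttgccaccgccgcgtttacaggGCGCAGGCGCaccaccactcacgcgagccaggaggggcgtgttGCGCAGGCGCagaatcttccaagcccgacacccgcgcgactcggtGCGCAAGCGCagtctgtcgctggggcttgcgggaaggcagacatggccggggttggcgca
Cox7c: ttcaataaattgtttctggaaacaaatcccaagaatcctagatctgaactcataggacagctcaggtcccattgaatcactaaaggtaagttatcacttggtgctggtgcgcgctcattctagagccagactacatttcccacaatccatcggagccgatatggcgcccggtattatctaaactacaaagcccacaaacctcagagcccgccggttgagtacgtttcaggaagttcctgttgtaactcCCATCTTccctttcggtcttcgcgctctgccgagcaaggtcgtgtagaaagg
Atp5g2: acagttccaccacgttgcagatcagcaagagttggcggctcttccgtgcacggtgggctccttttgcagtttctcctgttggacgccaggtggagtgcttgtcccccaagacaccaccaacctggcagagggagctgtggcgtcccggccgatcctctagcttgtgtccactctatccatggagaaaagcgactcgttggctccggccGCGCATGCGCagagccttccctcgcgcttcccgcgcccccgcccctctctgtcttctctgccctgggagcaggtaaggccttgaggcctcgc
Atp5h: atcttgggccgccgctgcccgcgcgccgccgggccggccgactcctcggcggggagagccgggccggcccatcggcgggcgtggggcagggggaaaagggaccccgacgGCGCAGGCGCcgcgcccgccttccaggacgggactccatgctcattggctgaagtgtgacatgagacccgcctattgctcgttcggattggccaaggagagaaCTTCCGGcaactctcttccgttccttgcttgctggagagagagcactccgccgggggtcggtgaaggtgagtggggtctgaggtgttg

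The NRF1 core stood once in Ndufa6 and Atp5g2, 3 times in Sdha and once in Atp5h, which also held an ETS core. Ndufa3 and Cox7c carried the YY1 core. These sequences belong to genes of opposite direction: Ndufa6, Sdha, Cox7c and Atp5g2 fell in the clone, and Ndufa3 and Atp5h rose. Of the 67 members with a promoter in the table, 18 (26.9%) held the NRF1 core, against 7% of all 27025 genes with a promoter and 16.2% of 8612 genes measured above the median level. The ETS core was in 22.4% of members, against 9.93% and 21.4%. For YY1 the shares were 17.9%, 7.28% and 8.71%, and for the receptor core 11.9%, 5.38% and 3.54%, in the same order. Among members that rose, 6 of 20 held the NRF1 core, 5 an ETS core and 3 a YY1 core; among those that fell, the counts were 6, 3 and 5 of 14. A match of letters is a description of the window and shows no binding.

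Complex I, the NADH dehydrogenase, had 11 members higher and 7 lower of 35, with a median difference of 0.09. Its share called was 51.4%, beside 51.2% of named genes above the median level. The core subunits encoded in the nucleus form the arm that carries electrons from NADH to ubiquinone. Ndufs3, a core subunit of the module next to the quinone site, read 9.56, 9.49 and 9.53 on population arrays 1 to 3 and 9.91, 9.98 and 9.89 on clone arrays 1 to 3, and rose by 0.40 ± 0.05 (log2 difference ± SE, adjusted p = 0.00159 in limma). Every clone array lay above every population array, and the further row for Ndufs3 also rose, by 0.46.

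Ndufv2, an iron-sulphur subunit of the NADH-oxidising tip, rose by 0.34 ± 0.05, from 10.64 to 10.98. Further core subunits did not pass. Ndufs7, an iron-sulphur subunit, stood 0.20 higher without overlap (adjusted p = 0.0592 in limma), Ndufv1, which binds NADH and flavin, 0.03 higher, and Ndufs1 at -0.04. Ndufs8 had the widest spread of all complex I members, with 8.82, 8.13 and 8.64 in the population and 8.48, 8.55 and 8.02 in the clone, so its difference of -0.18 ± 0.21 is not resolved.

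The largest movements of complex I were in accessory subunits, which surround the core and are needed for assembly or stability. Ndufa6 read 8.41, 8.44 and 8.38 in the population and 7.63, 7.60 and 7.54 in the clone, the largest difference of any member at -0.82 ± 0.05, or 1.77-fold lower (adjusted p = 7.22e-05 in limma). Ndufb9, which like Ndufa6 is a LYR-motif protein that docks an acyl carrier protein, went from 9.17, 9.13 and 9.14 to 8.39, 8.66 and 8.44, or 1.57-fold lower. Ndufs6 and Ndufs4, accessory subunits of the NADH-oxidising arm, went from 10.22 ± 0.08 to 9.55 ± 0.07 and from 9.35 ± 0.11 to 8.75 ± 0.07. In each of these 4 genes all clone arrays lay below all population arrays. Ndufs5 (-0.53), Ndufb4 (-0.28) and Ndufb6 (-0.19), subunits of the membrane arm, were the other falls.

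Ndufa3, a membrane-arm subunit, showed the largest rise of any member, from 8.39, 8.33 and 8.43 to 9.03, 9.07 and 9.08, or 1.60-fold (adjusted p = 0.000163 in limma). Ndufa10 rose from 9.46, 9.71 and 9.86 to 10.21, 10.33 and 10.31, or 1.52-fold; its population arrays were spread more widely than its clone arrays. Ndufb7 (0.38), Ndufb5 (0.37), Ndufa9 (0.35), Ndufa5 (0.23), Ndufa13 (0.22) and Ndufb11 (0.20) were the other accessory subunits that rose. The remaining 13 accessory subunits, with Ndufc2 (0.25) and Ndufb8 (-0.22) at their ends, did not pass. Rises and falls thus occurred within 1 complex: subunits of the membrane arm included both the largest rise and the fall of Ndufs5, and differences across complex I had an SD of 0.36.

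Complex II, the succinate dehydrogenase, has 4 subunits and moved in opposite directions. Sdha, the flavoprotein that oxidises succinate, read 10.96, 10.95 and 10.89 in the population and 10.48, 10.46 and 10.38 in the clone, and fell by 0.49 ± 0.05 on the log2 scale (adjusted p = 0.000804 in limma). Sdhc, a membrane anchor at the ubiquinone site, read 8.58, 8.51 and 8.47 and then 8.93, 9.05 and 9.04, and rose by 0.49 ± 0.06 (adjusted p = 0.00124 in limma). Neither gene had overlapping groups. Sdhb, the iron-sulphur subunit, differed by -0.07 ± 0.06 and Sdhd, the other anchor, by -0.22 ± 0.08 (adjusted p = 0.104 in limma), the latter without overlap.

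In complex III, which passes electrons from ubiquinol to cytochrome c, 2 of 7 members fell (28.6% called, beside the same 51.2%), none rose, and the median difference was -0.17. At an unadjusted p under 0.05 the rise count is also 0. Both that fell carry redox centres. Cyc1, the cytochrome c1 subunit, read 9.41, 9.54 and 9.54 in the population and 8.695, 9.001 and 8.879 in the clone, or 1.55-fold lower (adjusted p = 0.00238 in limma). Uqcrfs1, the Rieske iron-sulphur protein, read 6.92, 6.96 and 6.83 and then 6.38, 6.54 and 6.42, or 1.37-fold lower (adjusted p = 0.00251 in limma). The core scaffold subunits Uqcrc1 (-0.09 ± 0.11) and Uqcrc2 (0.07 ± 0.12) overlapped between groups, as did Uqcrh and Uqcrq. Uqcrb had 3 rows: the brightest differed by -0.24 (adjusted p = 0.123 in limma) while the others fell by 0.28 and 0.50 on the log2 scale.

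Complex IV, the cytochrome c oxidase, had 1 member higher and 5 lower of 18, with a median of -0.10. Its share called was 33.3%, below the 51.2% of named genes above the median level, although 6 of the 18 lie at or below that level, and 29.0% of all named genes were called. Cox7c, a small membrane subunit, read 9.79, 9.82 and 9.78 in the population and 9.26, 9.28 and 9.27 in the clone, a fall of 0.53 ± 0.05 on the log2 scale (adjusted p = 0.000296 in limma) with replicate SDs of 0.02 and 0.01. Its further row fell by 0.50 on the log2 scale. Cox7a2 went from 8.98 ± 0.03 to 8.62 ± 0.10 and Cox8a from 9.55 ± 0.10 to 9.31 ± 0.04, both small subunits in the forms found in most tissues. Ndufa4, once counted in complex I and now in complex IV, was the rise, from 10.14, 10.36 and 10.14 to 10.59, 10.47 and 10.50.

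Several subunits of complex IV exist as tissue isoforms. Cox4i1, the common form of the largest nuclear subunit, stood 0.11 ± 0.07 higher and did not pass, and Cox5a differed by -0.01 ± 0.08. Cox4i2, a form best known from lung and tied to low oxygen, read 5.62, 5.67 and 5.67 in the population and 5.46, 5.52 and 5.39 in the clone (-0.20 ± 0.05, adjusted p = 0.0403 in limma). Of the heart and muscle forms Cox6a2, Cox7a1 and Cox8b, and the testis forms Cox6b2, Cox7b2 and Cox8c, all 6 lay below the median of every array in both groups. Cox6a2 passed, at 4.70, 4.72 and 4.88 and then 4.52, 4.45 and 4.48, but at this level the size of the difference is not exact. Their common partners Cox6a1 (0.19), Cox6b1 (0.15) and Cox7b (0.03) did not pass. Cox5b had 2 rows, of which the brighter differed by -0.13 (adjusted p = 0.171 in limma) and the dimmer fell by 0.27 on the log2 scale.

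**Figure D2:**
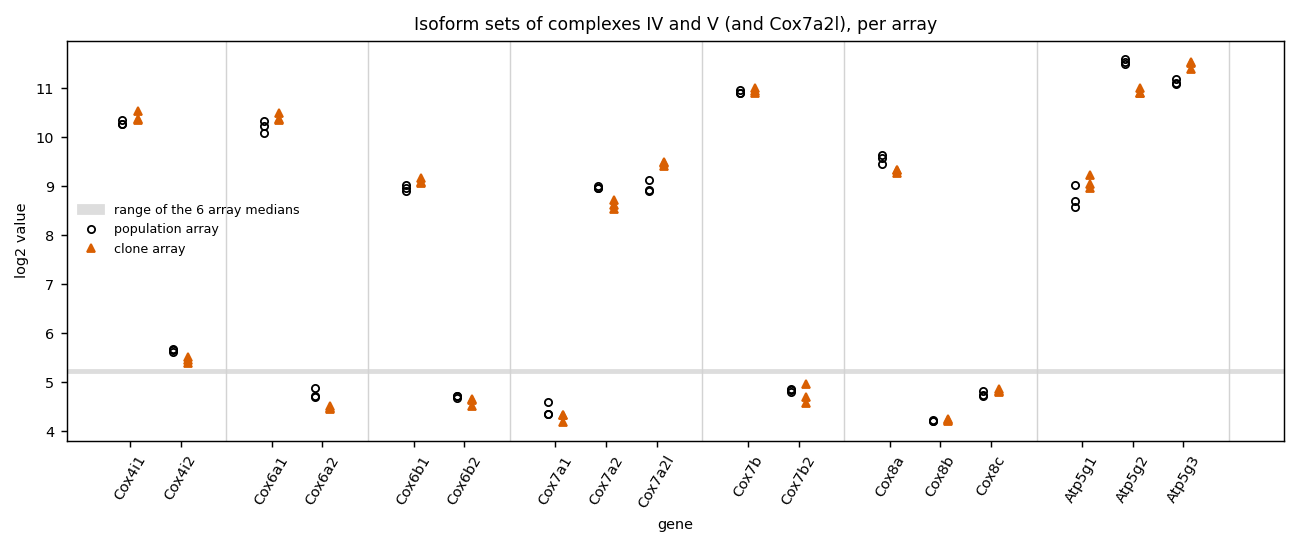
Log2 values (vertical axis) on the 3 population arrays (open circles) and the 3 clone arrays (triangles) for isoform sets of complexes IV and V and for Cox7a2l; the grey band spans the array medians, 5.19 to 5.25. The muscle and testis forms lie below the band, and Atp5g2 falls from 11.54 to 10.93 where Atp5g3 rises from 11.12 to 11.48; heights of different genes are not comparable.

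Complex V, the ATP synthase, had 8 members higher and 3 lower of 15, a share called of 73.3% beside 51.2% of named genes above the median level, and a median difference of 0.24. Of the 5 subunits of its catalytic head, 4 rose: Atp5a1 (alpha) by 0.25 ± 0.05, Atp5c1 (gamma) by 0.22 ± 0.05, Atp5d (delta) by 0.24 ± 0.06 and Atp5e (epsilon) by 0.34 ± 0.07. Atp5b (beta), which holds the catalytic sites, read 12.46, 12.47 and 12.49 in the population and 12.59, 12.59 and 12.54 in the clone; its groups did not overlap but the difference of 0.10 did not pass (adjusted p = 0.213 in limma). With the median of each gene's chromosome subtracted, none of these 4 rises passed: the differences were 0.094 for Atp5a1, 0.096 for Atp5c1, 0.039 for Atp5d and 0.21 for Atp5e. Of the membrane subunits, Atp5j2 (0.33) and Atp5k (0.33) rose and Atp5l did not pass in any of its 6 rows.

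The stalk that holds the head in place moved both ways. Atp5h, subunit d of the stalk, read 11.10, 11.17 and 11.15 and then 11.62, 11.59 and 11.60, and rose by 0.47 ± 0.05 (adjusted p = 0.00064 in limma), with all 3 of its rows higher. Atp5f1, subunit b of the same stalk, read 8.74, 8.66 and 8.65 and then 8.14, 8.18 and 8.13, and fell by 0.53 ± 0.05 on the log2 scale (adjusted p = 0.000476 in limma). Atp5j, coupling factor 6, fell by 0.23 ± 0.06 on that scale, and Atp5o, which links stalk and head, stood 0.15 higher without passing.

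Subunit c, which forms the rotating ring, is made by 3 genes that differ in the import sequence and yield the same mature protein. Atp5g2 read 11.60, 11.54 and 11.50 in the population and 10.900, 11.002 and 10.896 in the clone, or 1.53-fold lower (adjusted p = 0.000387 in limma), and its other 2 rows fell as well, by 0.50 and 0.60 on the log2 scale. Atp5g3 read 11.19, 11.10 and 11.09 and then 11.52, 11.40 and 11.53, or 1.28-fold higher (adjusted p = 0.00563 in limma). Atp5g1 read 9.02, 8.57 and 8.69 and then 8.97, 9.24 and 9.04, with overlapping groups and a difference of 0.32 ± 0.13 (adjusted p = 0.139 in limma). So 1 of the 3 fell, 1 rose and 1 did not pass. No source used here says whether the rows of one gene also pick up near-identical copies elsewhere in the genome, and sizes for the 13 members with several rows are uncertain for that reason; rows of 2 of them, Cox5b and Uqcrb, differed in call, and none had rows called in opposite directions.

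Among the 4 genes that name no subunit, Cox7a2l rose by 0.47 ± 0.07, from 8.93, 9.13 and 8.91 to 9.47, 9.49 and 9.42, and its further row rose by 0.62. Atp5s rose by 0.29 ± 0.08. Atp5sl (0.13) and Cox4nb (-0.31 ± 0.17, with population arrays at 6.92, 6.78 and 7.45) did not pass.

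**Figure D3:**
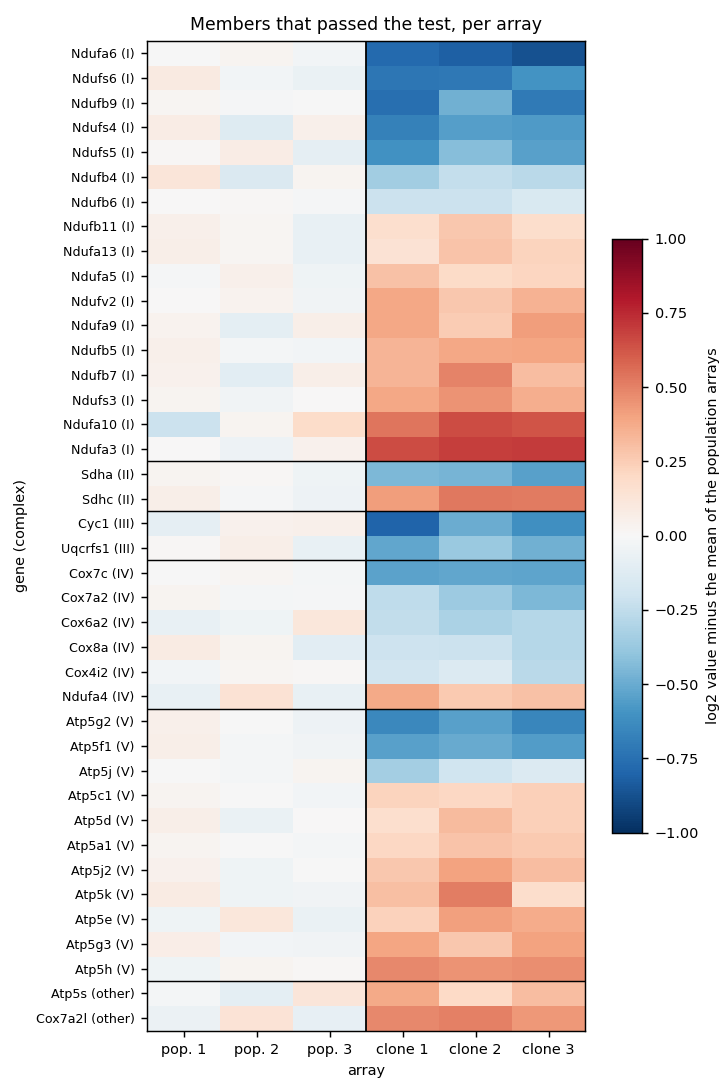
Log2 value on each of the 6 arrays (columns) minus the mean of the 3 population arrays, for 40 of the 41 members that passed the test (rows, with their complex in brackets). Red is higher and blue lower than the population mean, from -0.82 on average over the clone arrays for Ndufa6 to 0.68 for Ndufa3. The 3 clone arrays share the direction in every row. Only members that passed on these same arrays are drawn, so this reflects the choice of rows and is no separate result.

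The direction of the members ran with that of the chromosomes that carry them. Chromosomes differed in the median difference of their named genes above the median level, from -0.58 on chromosome 13, -0.50 on chromosome 15 and -0.42 on chromosome 3 to 0.22 on chromosome 17. All 6 members on chromosome 13 (Cox7c, Ndufs4, Ndufs6, Sdha, Uqcrb and Uqcrfs1) and all 5 on chromosome 15 (Atp5g2, Cox6c, Cyc1, Ndufa6 and Ndufb9) had negative differences and groups that did not overlap. Of those 11, 9 fell in the test, none rose, and Cox6c (-0.16, adjusted p = 0.0738 in limma) and Uqcrb did not pass. As background, 71.8% of the 425 such genes on chromosome 13 and 69.7% of the 442 on chromosome 15 fell, and 4.94% and 5.20% rose, which makes 76.7% and 74.9% called in either direction. Groups did not overlap for 66.5% of such genes over the whole genome. The share without overlap was not computed for chromosomes 13 and 15 alone. Member medians were -0.51 and -0.64 on these chromosomes, beside -0.58 and -0.50 for all such genes there. Both chromosomes were already known to be low in these data when they were singled out.

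Without these 11 genes, a setting added after the data were seen, 23 of 72 members were higher and 9 lower, with a median of 0.09. Across all chromosomes, 7 of the 20 had a negative median (3, 4, 9, 13, 15, 16 and 19). Counting all 83 members, on those 7 chromosomes 16 of 30 members fell and 1, Ndufb5 on chromosome 3, rose; 51.0% of named genes above the median level there fell and 7.52% rose. On the other 13, 22 of 53 members rose and 2, Cox4i2 and Cox6a2, fell, against 34.7% and 14.2% of such genes. So 22 of the 23 rises and 16 of the 18 falls had the sign of their chromosome's median, as did 91% of rises and 62.2% of falls among named genes above the median level. Of complex III, 5 of 7 members lie on chromosomes with a negative median, as do 3 of 4 for complex II, 12 of 35 for complex I, 5 of 15 for complex V and 5 of 18 for complex IV. The part of chromosome-wide shifts in the difference of any single member was not tested.

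**Figure D4:**
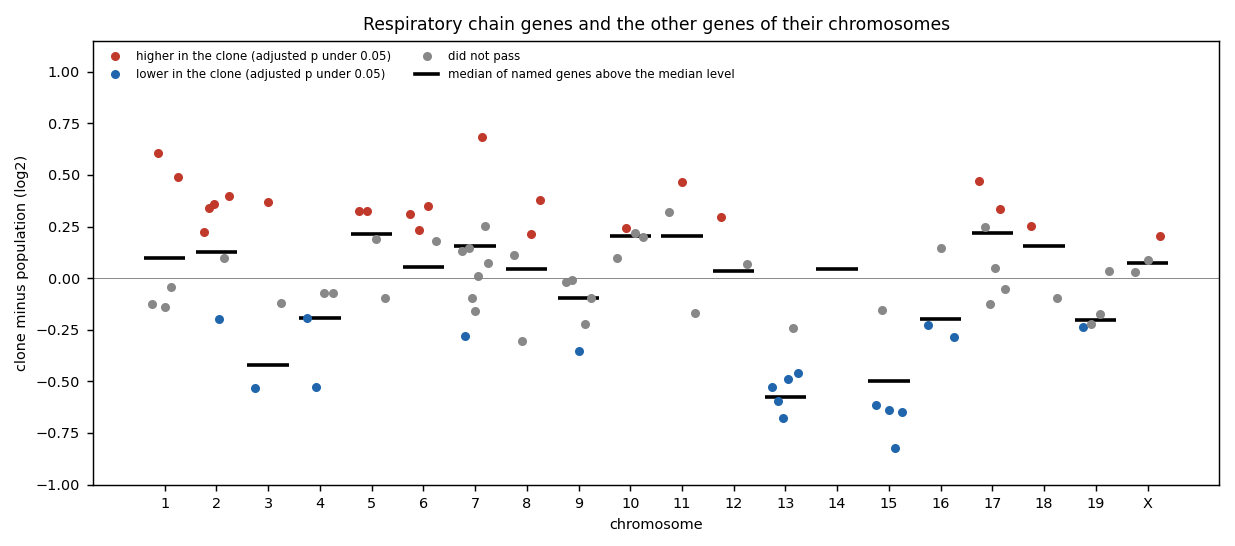
Difference between clone and population (log2, vertical axis) for 82 of the 83 members (points, coloured by call) by chromosome, with the median of the named genes above the median level on that chromosome as a black bar. The 11 members on chromosomes 13 and 15 lie between -0.82 and -0.16, and of the rises drawn, Ndufb5 on chromosome 3 is on a chromosome whose bar is below 0.

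Measured against the median of their own chromosome, 19 of the 41 calls were kept and the others ended. With that median subtracted, 19 members were higher and 14 lower, counts that include members that had not passed before. The calls that ended were Ndufa13, Ndufb4, Ndufb6, Ndufb9, Ndufb11, Ndufs4, Ndufs6 and Ndufv2 in complex I, Sdha in complex II, Cyc1 and Uqcrfs1 in complex III, Cox7c and Cox8a in complex IV, and Atp5a1, Atp5c1, Atp5d, Atp5e, Atp5f1, Atp5g2, Atp5j, Atp5j2 and Atp5k in complex V. Of the 11 calls in complex V, those of Atp5g3 and Atp5h were kept. Sdha, Uqcrfs1 and Cox7c, lower in the clone by 0.46 to 0.53 on the log2 scale, stood at 0.089, 0.12 and 0.049 above the median of chromosome 13 and did not pass. Ndufa6 was lower than the median of chromosome 15 by 0.32 and still passed, while Cyc1 (-0.14), Ndufb9 (-0.15) and Atp5g2 (-0.11) on that chromosome did not. On chromosome 13, Ndufs6 (-0.10) and Ndufs4 (-0.02) did not pass either. Ndufa3 (0.52), Ndufa10 (0.51), Sdhc (0.39) and Atp5h (0.26) stayed above the median of their chromosomes and passed.

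The 13 subunits encoded in the mitochondrial DNA are their partners in complexes I, III, IV and V, and 9 of them had a named row. Of the 9, 5 were higher and 1 lower, with a median difference of 0.24. Their share called was 66.7%, beside 51.2% of named genes above the median level. ND1 read 10.46, 10.65 and 10.32 in the population and 11.39, 10.85 and 11.55 in the clone, a rise of 0.79 ± 0.19 with a wide clone spread. ND3 rose by 0.40, ND4L by 0.28, ND2 by 0.26 and ND5 by 0.24. ND6, the protein gene encoded on the opposite strand from the rest, read 12.53, 12.75 and 12.60 and then 11.69, 11.64 and 11.85, and fell by 0.90 ± 0.08 on the log2 scale (adjusted p = 0.000379 in limma). CYTB (0.12), COX2 (0.17) and COX1 (0.03) did not pass. No source used here says whether the probes separate the strands of this compact genome.

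Other respiratory chain parts that the symbol pattern did not take, electron carriers and inputs among them, gave 2 higher and 6 lower of 13. That is 61.5% called, beside 51.2% of named genes above the median level, and 3 of the 13 lie at or below that level. Gpd2, the glycerol-phosphate dehydrogenase that feeds ubiquinone, read 8.80, 8.71 and 8.73 and then 7.37, 7.48 and 7.57, and fell by 1.27 ± 0.07 on the log2 scale. Higd2a, a factor of complex IV assembly on chromosome 13, had a difference of -1.08 ± 0.15, and Ndufa4l2, a hypoxia-induced relative of Ndufa4, one of -1.04 ± 0.06, to a clone level below every array median that leaves the size inexact. Etfb, a subunit of the electron-transferring flavoprotein, rose by 0.94 ± 0.08 while Etfdh, the enzyme that takes its electrons, fell by 0.62 ± 0.07 on the same scale. Cycs, which encodes cytochrome c, stood at 10.84 and 10.41 (-0.43 ± 0.06).

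Assembly factors, which build the complexes without staying in them, gave 8 higher and 9 lower of 42 measured, with a median of 0.01. Their share called was 40.5%, beside 51.2% of named genes above the median level. Cox17, the copper chaperone of complex IV, read 7.77, 8.01 and 7.93 and then 6.85, 6.67 and 6.71 (-1.16 ± 0.08). The complex I factors Timmdc1 (-0.99) and Ndufaf2 (-0.76) and the complex IV factor Cox14 (-0.69) fell, and Tmem126b, a factor for the membrane arm of complex I, rose by 0.78. These factors sit on chromosomes 16, 13 and 15 for Cox17 and Timmdc1, Ndufaf2 and Cox14, and on chromosome 7 for Tmem126b.

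Regulators and genes that keep or read the mitochondrial DNA gave 6 higher and 3 lower of 21. Their share called was 42.9%, beside 51.2% of named genes above the median level, and 4 of the 21 lie at or below that level. Tfb1m (0.53), Lrpprc (0.45), Polrmt, the mitochondrial RNA polymerase (0.44), and Polg, the mitochondrial DNA polymerase (0.42), rose, and Twnk, the helicase of mitochondrial DNA, differed by -0.47. Tfam, which packages that DNA and starts its transcription, rose by 0.32. Ppargc1a, a coactivator of mitochondrial genes, stood at 4.72 and 4.59 below the array medians and did not pass. Neither did Nrf1 (0.08) or Gabpa (-0.32, adjusted p = 0.0953 in limma). Yy1 (0.04, adjusted p = 0.692 in limma) did not pass either. Motifs of Nrf1, Gabpa and Yy1 are marked above. Esrra, an oestrogen-related receptor whose core was also searched, fell by 0.42 ± 0.12 on the log2 scale (adjusted p = 0.0405 in limma), and Pprc1, a coactivator related to Ppargc1a, by 0.36 ± 0.09.

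Of 22 genes of the tricarboxylic acid cycle and pyruvate entry, 8 rose and 4 fell. That is 54.5% called, beside 51.2% of named genes above the median level. Pdk1, a kinase that inhibits pyruvate dehydrogenase, read 9.34, 9.65 and 9.33 and then 7.72, 7.26 and 7.54, a difference of -1.93 ± 0.14, while its relatives Pdk4 and Pdk2 rose by 0.93 and 0.87. Idh2, an isocitrate dehydrogenase, rose by 0.80. Cs, citrate synthase, did not pass (0.08 ± 0.06). Carriers, import and membrane-shape genes gave 1 higher, the phosphate carrier gene Slc25a3 (0.30), and 3 lower of 18: Tomm22 (-0.80), the citrate carrier gene Slc25a1 (-0.75) and Tomm20 (-0.30). For these 18 the share called was 22.2%, beside the same 51.2%.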

How the data were processed

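Biotinylated cRNA was prepared from total RNA by the Affymetrix protocol, per the labels. For the platform, probe annotation and genome build, the entry is: not given in the sources used here. Log2 expression was taken from the authors' value table (RMA and Partek are named in the submitters' processing notes), where values lay between 3.34 and 14.35. Since RMA equalises arrays, a shift in the RNA content of the cells cannot be seen. The authors' deposited table adds, per the file headers, an unadjusted p-value and a signed linear fold (a score, negative where the clone was lower) per row; its log2 fold matched the difference of group means within 7.81e-05. Its 6 columns of per-array values have names that match none of the labels, and they stayed out of every step.

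All 35556 rows were fitted with limma 3.58.1 in R 4.3.3 (lmFit and eBayes; residual degrees of freedom 4, prior 2.72). Tests were two-sided, with Benjamini-Hochberg adjustment across the table and calls under 0.05. Differences are clone minus population. The fit was tested on simulated data. Of 22360 symbols, 17022 were current in a RefSeq table (GRCm38.p6), 3422 matched as older names and 1916 did not match; chromosomes came from it. Level filters used the median row mean.

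Some items are not reported here. The members and lists were chosen with earlier results of these data known. Named were all members that passed, core subunits, isoform sets and up to 5 passing genes of each other list by size. Added after their values were seen were Tfam, Ppargc1a, Pprc1, Nrf1, Gabpa, Yy1, Esrra, Cs, Cycs, further mitochondrially encoded genes and markers. Some other members that did not pass were also added then. Alternatives were repeated quantile normalization, centring, a level filter, variance moderation, thresholds, row averaging, the authors' p-values, the sample number as a block, chromosome medians and leaving out each array.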

Additional observations from a re-analysis of the deposited data

How the results depend on the processing

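The counts of 23 higher and 18 lower members stayed within 1.5 times under repeated quantile normalization (20 and 15), array centring (19 and 19), the level filter (24 and 17), trend with robust moderation (22 and 18), no moderation (17 and 14), averaged rows (22 and 20) and the authors' deposited p-values (17 and 14). Subtracting chromosome medians gave 19 and 14, but with other members: 19 of the 41 calls were kept, 19 lost and 3 turned in sign without passing, while 10 members newly passed with their sign and Cox6c, Uqcrb, Ndufc1 and Cox8b passed with the opposite one. An adjusted p under 0.01 left 11 higher and 12 lower, and a minimum of 1.5-fold left 2 and 6. Leaving out single arrays gave 15 to 18 higher, 13 to 14 lower and a median log2 difference of member genes of -0.0011 to 0.054, the lowest count of rises being without population array 3. Without members on chromosomes 13 and 15, a setting added after the data were seen, 9 were lower and the median was 0.093. The sample numbers did not pair the arrays, with same-number correlations of deviations from group means of -0.18, -0.14 and -0.04; with the number as a replicate block 14 were higher and 12 lower, 26 of the 41 calls being kept, and no sample correlated best with its own number. With chromosome medians subtracted, signs reversed for Sdha (0.089), Uqcrfs1 (0.12), Cox7c (0.049), Cox6c (0.34), Uqcrb (0.33), Ndufc1 (0.30) and Cox8b (-0.15), as follows from the subtraction. Members below the array medians have no exact size.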
